A study of Argiope bruennichi with 12 samples.

Results

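Gene expression after a winter with warmer days was compared with that after a moderate winter in spiderlings of the wasp spider Argiope bruennichi. The comparison held 8 of the 12 RNA-Seq samples of the series, chosen by their treatment labels. The 4 warm samples had been kept at 15°C by day and -5°C by night, and the 4 moderate samples at 5°C by day and -5°C by night. The regimes thus had the same night temperature and differed in the warmth of the day, and with it in the swing between day and night. Both lasted 3 months. Each sample was a pool of 15 whole first instar spiderlings from egg sacs of females collected at the northern range edge in Estonia, and no genetic manipulation or drug was involved. The remaining 4 samples came from a cold winter of 5°C by day and -15°C by night; they entered the model for its estimate of the spread and are otherwise given only beside a result. The warm and the moderate regime each ran in a single climate cabinet, so that effects of day temperature, of the daily swing and of cabinet cannot be told apart. The labels do not say from which egg sacs or mothers a pool was drawn, so the p-values measure the spread between these pools.

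First instar spiderlings of this species pass the winter inside the silk egg sac without feeding and live on stored lipids. As ectotherms they have a body temperature that follows that of the air, and a warm day speeds up metabolism. Heat shock proteins are chaperones that hold or refold damaged proteins and are induced in arthropods by heat, by cold and by recovery from cold. Enzymes that remodel phospholipids and fatty acids change the make-up of membranes, which is one of the ways in which ectotherms adjust to temperature.

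The values analysed were raw counts per gene. In the warm pools they summed to between 14062208 and 14705182 and in the moderate pools to between 10800714 and 14110124. A gene was tested if it had at least 10 counts in 4 or more of the 8 pools, which left 13823 of 37459 genes listed. Of these, 19 passed through the warm pools alone and 1 through the moderate pools alone. Normalized counts are counts scaled by edgeR's TMM factors to the mean library size, and they are comparable between pools for a gene but not between genes, since gene lengths over exons were not used. Pools of 1 regime differed by far more than counting noise, with a chi-square of 17.2 to 76.4 per degree of freedom over genes. DEGs are genes whose p-value, after Benjamini-Hochberg adjustment over all genes tested, was under 0.05 in edgeR's quasi-likelihood test on all 12 samples. The main counts and the values of most genes that the study names are also given with moderate replicate 4 left out. Other genes picked by fold-change or p-value are mostly given from the fit with all pools only. Moderate replicate 4 was left out because it stood apart from the other moderate pools. Its chi-square values against them were 49.97 to 76.4. Moderate replicate 2 also stood apart, with values of 40.97 and 44.9 against replicates 1 and 3, which differed from each other by 17.2. The sample weights of limma voom, an alternative tool, were 0.207 for moderate replicate 2 and 0.237 for moderate replicate 4. They were 0.951 to 2.76 for the other pools.

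With all pools in the fit 574 genes were DEGs between warm and moderate, 4.15% of the genes tested. Of these, 193 (1.4% of genes tested) were upregulated in warm and 381 (2.76%) downregulated. Changes of at least 2-fold were found in 199 DEGs (1.44%), of which 93 (0.673%) were upregulated and 106 (0.767%) downregulated. The surplus of downregulated genes was not the same under other scalings. Upper-quartile normalization gave 54 upregulated and 60 downregulated DEGs, whereas the size factors of DESeq2 gave 154 and 305. Why the balance differed was not tested. Nearly all of the calls lay close to the threshold, with 549 of the 574 adjusted p-values above 0.04 and the smallest at 0.0300. The count did not hold when a pool was removed. Leaving out any pool other than moderate replicate 4, in any regime, left between 0 and 5 DEGs, whereas 4403 DEGs (31.9%) were found without moderate replicate 4, of which 2056 (14.9%) were upregulated and 2347 (17%) downregulated. At a change of at least 2-fold there were 1115 (8.07%), with 690 (4.99%) upregulated and 425 (3.07%) downregulated. All 574 genes were among these 4403 and had the same direction.

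**Figure D1:**
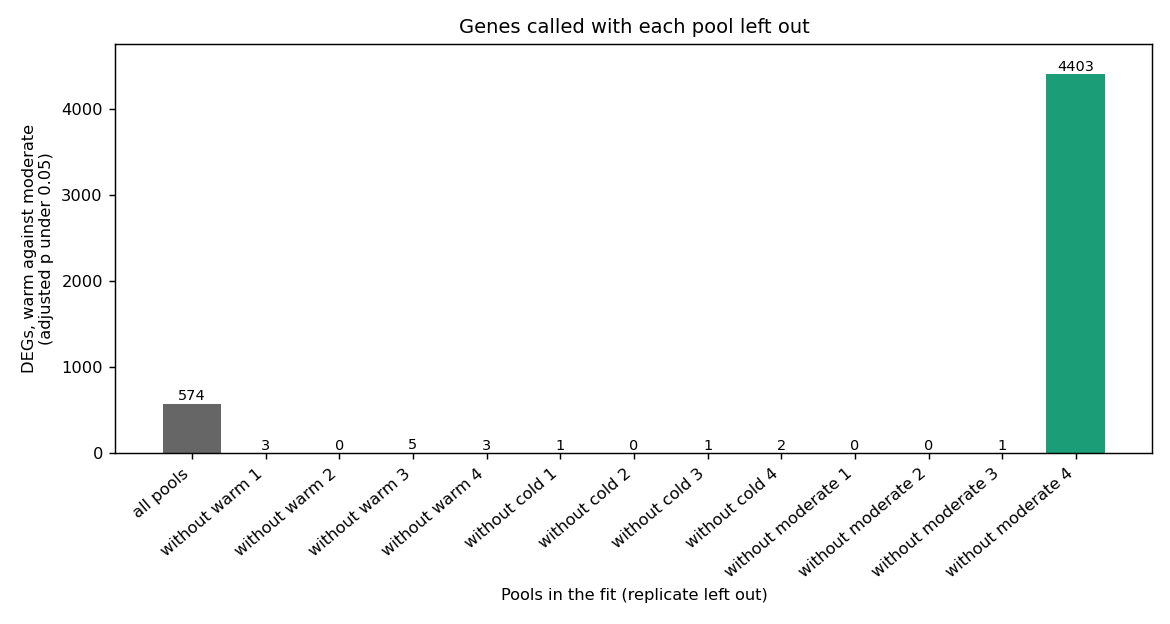
Number of DEGs between warm and moderate (bars, from edgeR's quasi-likelihood test) with all 12 pools in the fit and with each pool left out in turn. The count was 574 with all pools, 4403 without moderate replicate 4 and between 0 and 5 without any other pool.

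Without moderate replicate 4 the count was less dependent on single pools. When one further warm or moderate pool was left out, a step added after the data had been seen, between 3518 and 4124 DEGs remained. The unadjusted p-value was under 0.05 for 4119 genes with all pools. All 4 warm pools lay above all 4 moderate pools in 739 genes (5.35% of genes tested) and below them in 745 genes (5.39%). Against moderate replicates 1, 2 and 3 alone, the warm pools were separated in 38.3% of the genes tested.

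Moderate replicate 4 took up a position near the warm pools in most of the genes that differed between the other samples. For each of the 4403 DEGs called without it, its position was measured on a log2 scale (of normalized counts plus 1) on which the mean of moderate replicates 1 to 3 is at 0 and the mean of the warm pools at 1. The median position of moderate replicate 4 was 0.95 (quartiles 0.74 and 1.15). It lay nearer to the warm mean in 3985 of these genes (90.5%), inside the range of the warm pools in 2503 (56.8%) and inside the range of the other moderate pools in 278 (6.31%). The position was alike for genes upregulated in warm (median 0.94) and downregulated in warm (median 0.96). The cold pools, which do not enter the contrast either, had medians between 0.42 and 0.48 on this scale. In the labels moderate replicate 4 is a moderate sample, and it was treated as one. Whether its position came from the animals in the pool or from handling was not tested.

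**Figure D2:**
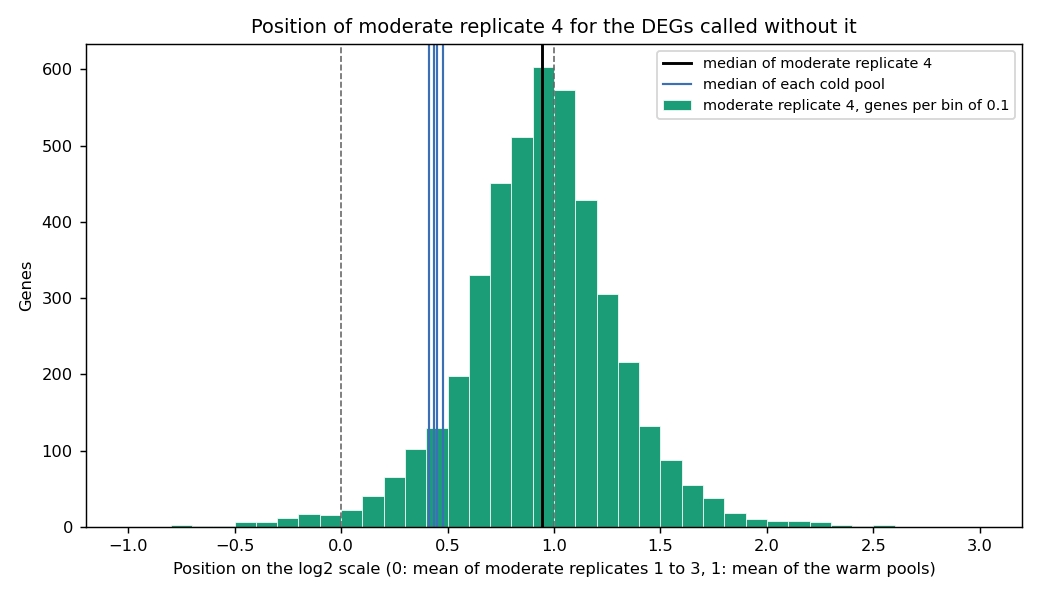
Histogram of the position of moderate replicate 4 for the 4403 DEGs called without it, in bins of 0.1, where 0 is the mean of moderate replicates 1 to 3 and 1 the mean of the warm pools. The median lay at 0.95, close to the warm mean, whereas the medians of the 4 cold pools lay between 0.42 and 0.48; values beyond -1 or 3 are drawn at these limits.

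Some simple measures of the libraries also placed moderate replicate 4 near the warm pools. Long non-coding RNA genes took 1.80% to 1.85% of the counts in the warm pools, against 2.05%, 2.20% and 2.20% in moderate replicates 1, 2 and 3 and 1.80% in moderate replicate 4. The cold pools had 1.46% to 1.79%, so that in this measure moderate replicates 1 to 3 were above every other pool. Small nuclear and small nucleolar RNA genes took 0.942% to 1.04% in the warm pools, against 0.609%, 0.636% and 0.760% in moderate replicates 1, 2 and 3 and 0.973% in moderate replicate 4. The cold pools had 0.581% to 0.778%. The part of these shares in the results was not tested. The 10 genes with most counts took 5.97% to 6.66% in warm and 6.06% to 6.50% in moderate. Markers of single tissues were not examined, as gene products other than those named in the study were not annotated in the sources used here. In whole animals a lower count can mean fewer cells of a type or less RNA per cell, and these cannot be told apart.

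The study names 24 genes in its text, by LOC identifier and product, and all of them passed the filter. They had been picked from DEGs of the same 12 samples in 1 or more of the contrasts, for some of them this one, so their direction here is no independent evidence. With all pools 2 of the 24 were upregulated and 8 downregulated in warm (4.15% of all genes tested were called), and 14 were not called. The numbers were 6, 12 and 6 without moderate replicate 4, beside 31.9% of all genes tested. The median log2 fold-change of the 24 was -0.30, against 0.00 over all genes tested.

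Of the 7 genes that the study lists under heat shock, 5 are chaperones and 2 are cytochromes P450. With all pools 6 were downregulated in warm, beside 2.76% of all genes tested, and 1 cytochrome P450 was not called. The study lists these 6 as downregulated in this contrast of the same pools, and the other for warm against cold only. Neither the counts nor the medians given here are therefore independent evidence. Without moderate replicate 4 all 7 were downregulated, beside 17% of all genes tested. Their median log2 fold-change was -1.98 with all pools and -2.28 without moderate replicate 4, against medians of 0.00 over all genes tested in both fits. None of the 7 was called in a fit that left out a pool other than moderate replicate 4.

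Alpha-crystallin A chain-like (LOC129984551, chromosome 9 from 89477817 to 89478851 in assembly qqArgBrue1.1) belongs to the small heat shock proteins, which bind unfolding proteins without using ATP. It had 72, 63.6, 143 and 153 normalized counts in warm replicates 1 to 4, against 1355, 3199, 3334 and 131 in moderate replicates 1 to 4. Moderate replicates 1 to 3 were each more than 8 times as high as the highest warm pool, and moderate replicate 4 lay among the warm pools. The log2 fold-change of this gene, warm over moderate, was -4.22 (standard error, SE, 0.71, adjusted p = 0.0357 by the quasi-likelihood F-test of edgeR), and -4.61 (adjusted p = 3.11e-05) without moderate replicate 4. The cold pools, which had the same cool day as the moderate ones, had 1627, 823, 996 and 1187 normalized counts, all above the warm pools.

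Heat shock protein 70 B2 (LOC129958558, chromosome 2 from 133493861 to 133496324) is a member of the Hsp70 family, ATP-driven chaperones that refold proteins and are among the most strongly inducible genes of the heat shock response. Its normalized counts were 759, 476, 502 and 305 in the warm pools, against 4809.9, 7719.9, 3365 and 239 in the moderate pools. All warm pools were below moderate replicates 1 to 3, and moderate replicate 4 was the lowest of all 8. The log2 fold-change was -2.98 (SE 0.72, adjusted p = 0.0458) with all pools and -3.37 (adjusted p = 0.000358) without moderate replicate 4, from the same edgeR test. Another annotated gene overlaps this one, and the treatment of strand in the counting is not given in the sources used here, so reads of the pair may not be fully separated. The cold pools spread widely, from 897 to 2903.

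LOC129957165 (lethal(2)essential for life-like, chromosome 11 from 54517678 to 54518615) carries the name of a small heat shock protein of Drosophila. It had 134, 315, 404 and 323 normalized counts in warm, against 1323, 2665, 1484 and 331 in moderate. The log2 fold-change was -2.30 (SE 0.51, edgeR adjusted p = 0.0452), and -2.63 without moderate replicate 4. Small heat shock protein (LOC129988413, chromosome 10 from 81494363 to 81495307) had 537, 699, 1315 and 1103 in warm, against 2977, 5168, 5196 and 1075 in moderate. Its log2 fold-change was -1.98 (SE 0.46, edgeR adjusted p = 0.0452), and -2.28 without moderate replicate 4. For both genes moderate replicates 1 to 3 lay above all warm pools, and moderate replicate 4 lay inside the warm range.

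Alpha-crystallin B chain-like (LOC129981871, chromosome 8 from 59598098 to 59599079), the other alpha-crystallin of the list, was at 113, 121, 171 and 155 normalized counts in warm, against 326, 892, 457 and 168 in moderate. It fell by a log2 fold-change of -1.71 (SE 0.38, edgeR adjusted p = 0.0452), and of -1.99 without moderate replicate 4. Moderate replicate 4 overlapped with the warm pools, and moderate replicate 2 had the highest value of the gene. In each of the 5 chaperone genes moderate replicates 1 to 3 lay above all warm pools, and moderate replicate 4 lay inside or below the warm range.

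The 2 cytochrome P450 genes of the list differed from each other in the position of moderate replicate 4. Cytochromes P450 are monooxygenases that oxidize lipids, hormones and foreign compounds. Cytochrome P450 3A24-like (LOC129957012, chromosome 11 from 24417214 to 24469182) had 209, 93.5, 162 and 207 normalized counts in warm, against 846, 509, 456 and 207 in moderate. It was downregulated by a log2 fold-change of -1.59 (SE 0.38, edgeR adjusted p = 0.0458), and of -1.85 without moderate replicate 4. Moderate replicate 4 was as high as the highest warm pools. Another annotated gene overlaps it, as is the case for heat shock protein 70 B2. Cytochrome P450 (LOC129961890, chromosome 2 from 21824727 to 21869453) had 1179, 1739, 1363 and 1690.0 in warm, against 2429, 2558, 2012 and 1989 in moderate, so that all 4 warm pools lay below all 4 moderate pools. Its log2 fold-change of -0.59 (SE 0.18) had an adjusted p of 0.0629 with all pools and of 0.0211 without moderate replicate 4, both from edgeR.

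**Figure D3:**
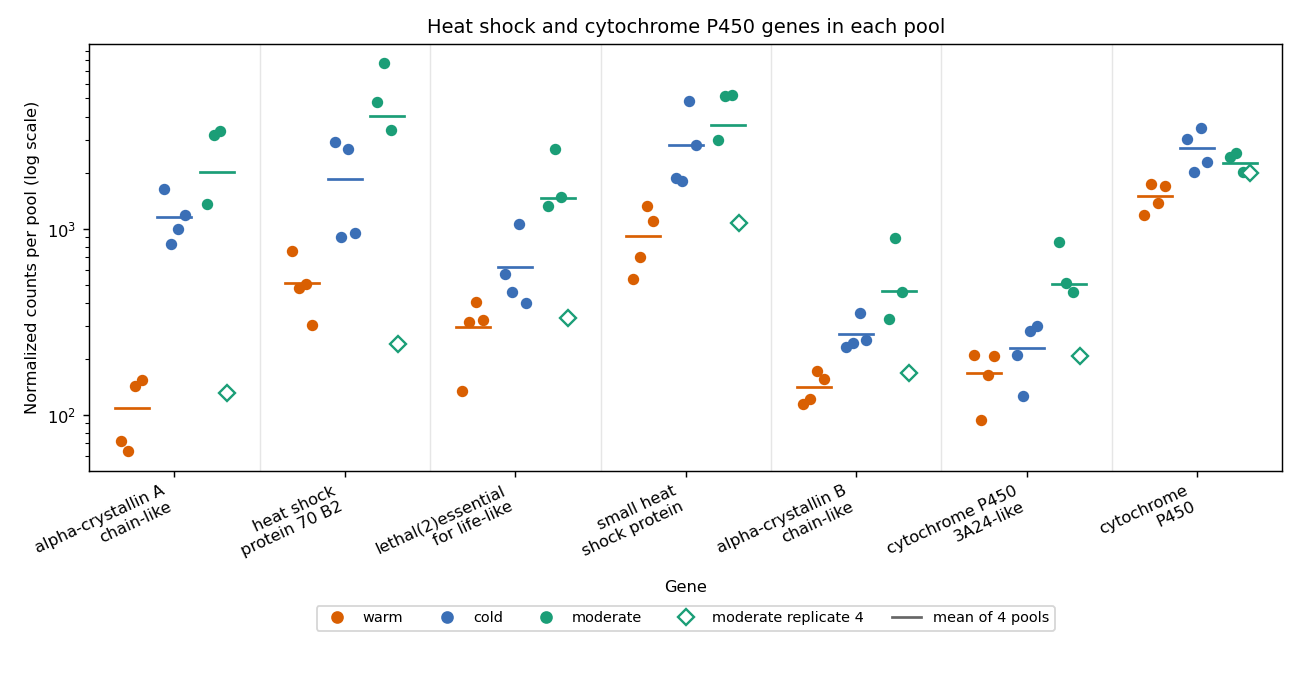
Normalized counts per pool (log scale) of the 7 genes that the study lists under heat shock, with warm, cold and moderate pools from left to right, horizontal lines at the mean of 4 pools and moderate replicate 4 as an open diamond. In the 5 chaperone genes moderate replicates 1 to 3 lie above all warm pools, and moderate replicate 4 lies among or below the warm pools.

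Of the 9 genes of lipid metabolism, 2 were upregulated and 1 was downregulated in warm with all pools, beside 1.4% and 2.76% of all genes tested, and 6 were not called. There were 4 upregulated, 2 downregulated and 3 uncalled genes without moderate replicate 4, beside 14.9% and 17% of all genes tested. The list was mixed in direction, with a median log2 fold-change of 0.34, against 0.00 over all genes tested.

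Acetoacetyl-CoA synthetase (LOC129964270, chromosome 3 from 28537710 to 28572423) activates the ketone body acetoacetate in the cytosol for the synthesis of fatty acids and sterols. Its normalized counts were 948, 1628, 1087 and 1159.9 in warm, against 78.8, 78.7, 33 and 535 in moderate. Every warm pool was above every moderate pool, and moderate replicate 4 lay between the other moderate pools and the warm ones. The gene was upregulated by a log2 fold-change of 2.73 (SE 0.66, edgeR adjusted p = 0.0458), and by 4.26 (adjusted p = 8.60e-05) without moderate replicate 4. The cold pools had 532, 207, 441 and 185, all of them under the warm pools and above moderate replicates 1 to 3.

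Fatty acid amide hydrolase 2 (LOC129976441, chromosome 7 from 58314738 to 58347614), which splits fatty acid amides into free fatty acids, had 175, 192, 163 and 159 normalized counts in warm, against 58.6, 80.2, 54 and 55.3 in moderate. The groups did not overlap, and moderate replicate 4 was like the other moderate pools. The log2 fold-change was 1.48 (SE 0.26, edgeR adjusted p = 0.0389) with all pools and 1.43 without moderate replicate 4.

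Phospholipase A2 (LOC129964053, chromosome 3 from 91841210 to 91863774), which releases a fatty acid from membrane phospholipids, had 299.9, 435, 342 and 177 normalized counts in warm, against 1020.2, 956, 802 and 568 in moderate. Here too the groups did not overlap, although moderate replicate 4 was the lowest of its regime. The gene fell in warm with a log2 fold-change of -1.42 (SE 0.25, edgeR adjusted p = 0.0389), and of -1.56 without moderate replicate 4. The cold pools, at 1018 to 1585, were all above the warm pools.

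Lysophospholipid acyltransferase (LOC129987920, chromosome 10 from 6311991 to 6347226) puts a fatty acid back on a lysophospholipid, the reverse of the step above. It had 1109, 827, 916 and 1017 normalized counts in warm, against 1118, 1273, 1230.1 and 1349 in moderate, with no overlap between the regimes. The highest warm pool and the lowest moderate pool were close to each other. The log2 fold-change of -0.36 (SE 0.11) was not past the threshold with all pools (adjusted p = 0.0596) and was past it without moderate replicate 4 (adjusted p = 0.0346), both from edgeR.

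Diacylglycerol kinase 1 (LOC129984733, chromosome 9 from 15025069 to 15643679), which makes phosphatidic acid from diacylglycerol, had 1060.1, 1188, 1171 and 1252 normalized counts in warm, against 759, 883, 564 and 1127 in moderate. Moderate replicate 4 was inside the warm range, and the other moderate pools were below it. The log2 fold-change was 0.49 with all pools (edgeR adjusted p = 0.0763) and 0.67 without moderate replicate 4 (adjusted p = 0.00299). Low-density lipoprotein receptor (LOC129957447, chromosome 2 from 5537134 to 5791238), a receptor for the uptake of lipoproteins, had 519, 386, 374 and 254 in warm, against 215, 218, 222 and 287 in moderate. Moderate replicates 1 to 3 differed little from each other, and the regimes overlapped only through warm replicate 4 and moderate replicate 4. Its log2 fold-change was 0.70 (edgeR adjusted p = 0.0577), and 0.81 (adjusted p = 0.0119) without moderate replicate 4.

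For 3 lipid genes no difference between warm and moderate was detected in either fit. Apolipophorins-like (LOC129959427), the lipid carrier of the haemolymph, had 23917, 15288, 18568 and 10495 normalized counts in warm, against 19142, 8985, 13926 and 15359 in moderate (log2 fold-change 0.25, standard error 0.25). Acyl-CoA dehydrogenase (LOC129963497), which opens the oxidation of fatty acids in mitochondria, had 429.6 to 524 in warm, against 415 to 492 in moderate. Its log2 fold-change of 0.02 had a standard error of 0.11, the same size as that of lysophospholipid acyltransferase. Nose resistant to fluoxetine (LOC129962681), named after a membrane protein of Caenorhabditis elegans, had 368 to 427 in warm, against 277 to 384 in moderate, with only moderate replicate 3 overlapping (log2 fold-change 0.34, edgeR adjusted p = 0.129).

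**Figure D4:**
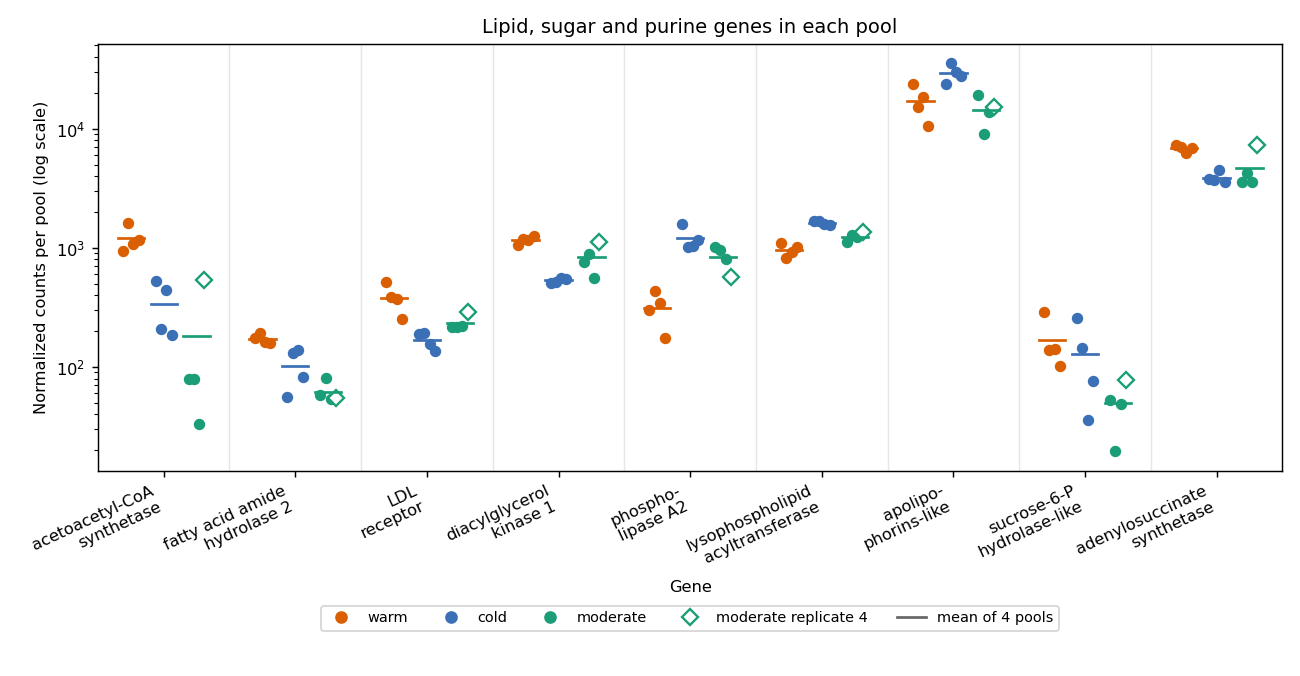
Normalized counts per pool (log scale) of 9 genes of lipid, sugar and purine metabolism, drawn as for the heat shock genes, with warm, cold and moderate pools from left to right. Acetoacetyl-CoA synthetase and fatty acid amide hydrolase 2 are higher and phospholipase A2 lower in every warm pool than in every moderate pool, and moderate replicate 4 (open diamond) is inside the warm range for diacylglycerol kinase 1 and adenylosuccinate synthetase.

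Of the other 8 genes named in the study 1 was called with all pools, beside 4.15% of all genes tested. Without moderate replicate 4, 2 were upregulated and 3 downregulated, beside 14.9% and 17% of all genes tested, and 3 were not called. G-protein coupled receptor 52-like (LOC129963668, chromosome 3 from 44427481 to 44494828), a membrane receptor, had 870.1, 980.3, 1019.6 and 1066 normalized counts in warm, against 1386, 1614, 1302 and 1171 in moderate, without overlap. It was downregulated by a log2 fold-change of -0.48 (SE 0.11, edgeR adjusted p = 0.0453), and of -0.54 without moderate replicate 4. Another annotated gene overlaps it.

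Adenylosuccinate synthetase (LOC129983880, chromosome 9 from 2297594 to 2313840), an enzyme on the path to AMP in purine synthesis, had 7349.9, 6965, 6239 and 6899 normalized counts in warm, against 3555, 4278, 3604 and 7238 in moderate. Moderate replicate 4 was inside the warm range and the other moderate pools were far below it. The log2 fold-change was 0.56 (edgeR adjusted p = 0.0832) with all pools, and 0.85 (adjusted p = 0.000339) without moderate replicate 4.

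Sucrose-6-phosphate hydrolase-like (LOC129956957, chromosome 11 from 99334488 to 99352337), named after an enzyme that splits a phosphorylated sugar, had 289, 139, 143 and 102 normalized counts in warm, against 52.8, 19.7, 49 and 77.9 in moderate. There was no overlap, but warm replicate 1 stood above the others. The log2 fold-change was 1.74 (SE 0.54, edgeR adjusted p = 0.0647), and 2.02 (adjusted p = 0.0221) without moderate replicate 4. Adult-specific rigid cuticular protein (LOC129968137, chromosome 5 from 13652767 to 13657185), a structural protein of the exoskeleton, had few counts, with 6.46, 10.6, 10.9 and 24.4 in warm, against 27.9, 43.6, 139 and 12.4 in moderate. Its log2 fold-change of -2.09 rested much on moderate replicate 3 and had an adjusted p of 0.0615 with all pools and 0.00539 without moderate replicate 4, both from edgeR. Tubulin alpha chain (LOC129976437), putative ankyrin repeat protein (LOC129985250) and quinone oxidoreductases (LOC129981218) were called in neither fit, with log2 fold-changes of -0.04, -0.23 and -0.05.

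Most DEGs have no product name in the sources used here and are given by identifier, position and values. Among DEGs with a mean normalized count of at least 10 and no overlap between warm and moderate pools, 10 genes with the largest rise and 10 with the largest fall were examined. The rises ran from log2 fold-changes of 2.08 to 3.22, with acetoacetyl-CoA synthetase the only one that the study names. The falls ran from -2.95 to -1.60.

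The largest of these rises was in LOC129989304 (chromosome 10 from 74244523 to 74285600), which had 252, 521, 146 and 703 normalized counts in warm, against 45.1, 36.6, 22 and 70.0 in moderate, a log2 fold-change of 3.22 (SE 0.63). LOC129967125 (chromosome 4 from 114887001 to 114901449) had 577, 1036, 1527 and 892 in warm, against 113, 68.9, 231 and 97.1 in moderate, and its log2 fold-change of 2.97 (SE 0.38) had the smallest adjusted p of all genes (0.0300 from edgeR). LOC129967415 (chromosome 1 from 33183900 to 33212708) had 541, 845, 142 and 785 in warm, against 52.8, 136, 61.1 and 98.3 in moderate. In the last 2 of these genes moderate replicate 4 was inside the range of the other moderate pools, and in LOC129989304 it was the highest of them. LOC129966501 (chromosome 1 from 4246829 to 4271233) had 1769.7, 745, 544 and 468 in warm, against 110.5, 94.2, 60.1 and 363 in moderate, and its moderate replicate 4 was the highest of the regime. LOC129961560, LOC129972952 and LOC129956776 rose from lower counts, with 33.7 to 62.7, 14.8 to 63.7 and 14.5 to 22.8 in warm, against 2.81 to 28.2, 0 to 13.6 and 0.961 to 9.04 in moderate.

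Among the falls without overlap, LOC129958196 (chromosome X1 from 35672654 to 35692102) had 13.8, 11.6, 11.9 and 7.52 normalized counts in warm, against 43.2, 239, 49 and 24.8 in moderate, where replicate 2 alone was far above the others. LOC129981840 (chromosome 8 from 21299458 to 21327913) had 29.5, 32.8, 26.7 and 18.8 in warm, against 121, 221, 104 and 38.4 in moderate. LOC129969466 (chromosome 5 from 17540333 to 17578315) had 40.6, 70.4, 69.3 and 95.9 in warm, against 361, 322, 295 and 119 in moderate, a log2 fold-change of -1.99 (SE 0.33). In both of these moderate replicate 4 was the lowest moderate pool. The other 7 falls, in LOC129968983, LOC129972298, LOC129959199, LOC129976206, LOC129981613, LOC129959430 and LOC129988463, had log2 fold-changes between -2.08 and -1.60, and LOC129959430 overlaps another annotated gene. Among them, LOC129976206 had 5.78 to 18.8 normalized counts in warm, against 33.9 to 61.1 in moderate, and 77.8 to 147 in cold.

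The 3 DEGs with the smallest p-values in each direction were LOC129967125 and 5 genes with smaller fold-changes. LOC129976248 (chromosome 7 from 60492246 to 60548875) had 502, 486, 619.7 and 468 normalized counts in warm, against 1000.0, 1011, 1142 and 816 in moderate, a log2 fold-change of -0.94 (SE 0.14). LOC129964022 (chromosome 3 from 60349358 to 60361716) had 289, 312, 303 and 338 in warm, against 582, 525, 539 and 427 in moderate. LOC129983756 (chromosome 9 from 90584933 to 90612453) had 320.2, 337, 308 and 353 in warm, against 757, 526, 643 and 487 in moderate. Each of these 3 fell, and the cold pools were in or near the moderate range, at 755 to 999, 476 to 562 and 466 to 598. LOC129966334 (chromosome 1 from 57520815 to 57542987) rose, with 363, 401, 323 and 359 in warm, against 142, 170.1, 168 and 220.3 in moderate and 167 to 220.4 in cold. LOC129963606 (chromosome 3 from 123878163 to 123890881) rose as well, with 114, 94.5, 74.2 and 48.9 in warm, against 23.1, 26.7, 18 and 29.4 in moderate.

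Larger falls than these were found in genes for which moderate replicate 4 overlapped with the warm pools, and they were chosen after their values were seen. LOC129962610 (chromosome 3 from 114521735 to 114523911) had 68.3, 82.9, 170.3 and 61.1 normalized counts in warm, against 984, 2369, 606 and 47.4 in moderate, a log2 fold-change of -3.39. LOC129957099 (chromosome 11 from 82154232 to 82155142) had 463, 496, 663 and 553 in warm, against 4041, 10053, 5269 and 421 in moderate, a log2 fold-change of -3.18. LOC129975178 (chromosome 7 from 70692605 to 70694796) had 42.4, 63.6, 88.1 and 63 in warm, against 259, 1419, 376 and 55.3 in moderate, a log2 fold-change of -3.03. In each of these 3 genes moderate replicates 1 to 3 lay above all warm pools, and moderate replicate 4 lay among or below them. LOC129973318 (chromosome 1 from 50053220 to 50067819) had 15.7, 11.6, 11.9 and 9.40 in warm, against 120.1, 117, 118 and 9.04 in moderate, so that moderate replicates 1 to 3 were nearly equal. The 20 DEGs with the largest falls, overlap or not, included 8 genes (40%) that span at most 3000 bases, from start to end, against 6.47% of all genes tested that have a position. Alpha-crystallin A chain-like, heat shock protein 70 B2, LOC129957165, LOC129962610, LOC129957099 and LOC129975178 were among these 8. Of all DEGs downregulated by at least 2-fold, 12.3% were this short, and of the 20 largest rises 15%.

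Some of the larger changes were called only when moderate replicate 4 was left out, and these too were picked after their values were seen. LOC129971067 (chromosome 6 from 86072376 to 86076846) had 64.6, 119, 88.1 and 83.7 normalized counts in warm, against 11.5, 5.62, 1.00 and 102 in moderate. It was upregulated without moderate replicate 4 by a log2 fold-change of 3.83 (edgeR adjusted p = 0.0483). LOC129960500 (chromosome X2 from 44743526 to 44762642) had 1104, 803, 475 and 254 in warm, against 71.1, 103, 25 and 339 in moderate, and its log2 fold-change without moderate replicate 4 was 3.34 (edgeR adjusted p = 0.00898). In both genes moderate replicate 4 lay inside the warm range. LOC129976378 (chromosome 7 from 120009275 to 120010912), a long non-coding RNA gene, had 12.9, 14.5, 0 and 4.70 in warm, against 29.8, 189.8, 71.1 and 1.13 in moderate, and fell by a log2 fold-change of -3.55 without moderate replicate 4 (edgeR adjusted p = 0.00478). LOC129965391 (chromosome 4 from 109513078 to 109515257) had 40.6, 70.4, 100 and 51.7 in warm, against 399, 710.1, 171 and 24.8 in moderate, and fell by -2.69 on the log2 scale (edgeR adjusted p = 0.00195).

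Among the DEGs, the overlaps between the regimes came mostly from moderate replicate 4. Of the 381 downregulated DEGs, 217 had no overlap of pools, and in all of the other 164 the warm pools were below moderate replicates 1 to 3. Of the 193 upregulated DEGs 175 had no overlap, and 16 of the other 18 had it only through moderate replicate 4. Over all genes tested, the warm pools lay below all moderate pools in 5.39% and above them in 5.35%. Against moderate replicates 1 to 3 alone these shares were 19.7% and 18.6%. The DEGs were called by a test on these same pools, which favours separated groups, so their separation is no independent result. For 50 of the 574 DEGs (8.71%, 28 upregulated and 22 downregulated) moderate replicate 4 was inside the range of the other moderate pools, beside 6.31% of the 4403 DEGs called without it. Fatty acid amide hydrolase 2, LOC129967125 and LOC129967415 were among the 50.

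Genes downregulated in warm had more counts than those upregulated. The median over genes of the mean normalized count was 828 for downregulated DEGs, 240.3 for upregulated DEGs and 342 for all genes tested. For the DEGs called without moderate replicate 4 the difference was smaller, with medians of 651 for downregulated and 338 for upregulated genes. Among genes with mean normalized counts of 1000 to 3000, 0.866% were upregulated and 5.32% downregulated, against 1.77% and 1.41% among those of 100 to 300. Without moderate replicate 4 the corresponding shares were 14.7% and 27%, against 16.7% and 12.1%. The changes themselves were mostly small, with 375 of the 574 DEGs under 2-fold. Median log2 fold-changes were 0.97 for upregulated and -0.74 for downregulated DEGs.

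**Figure D5:**
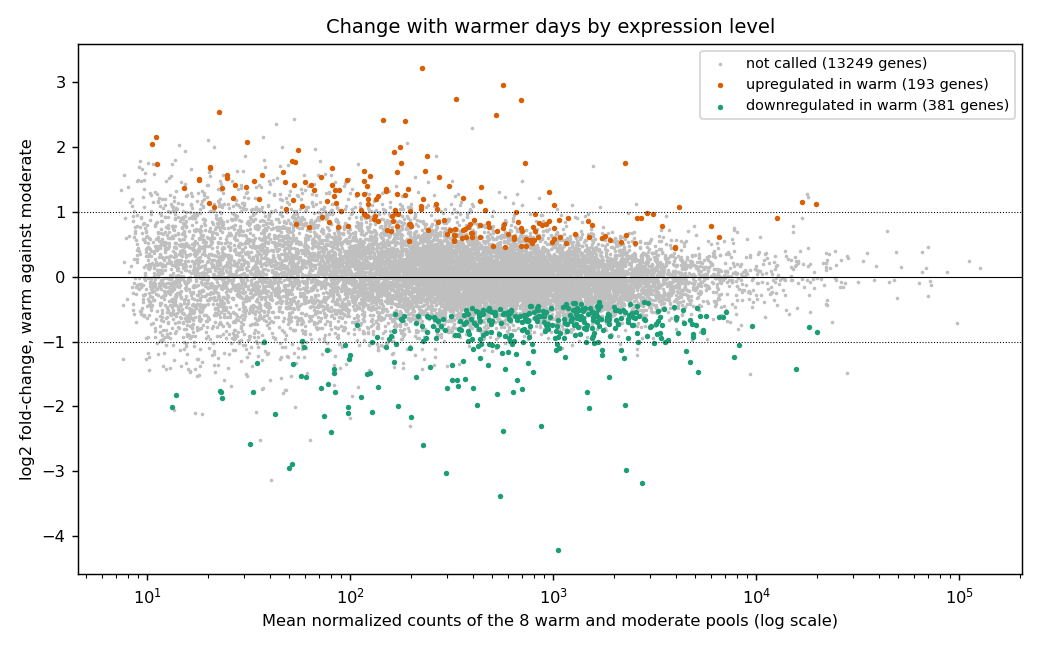
Log2 fold-change of warm against moderate for the 13823 genes tested, by the mean normalized count of the 8 pools (log scale), with dotted lines at a 2-fold change. The 193 upregulated DEGs (orange) spread over all counts, and the 381 downregulated DEGs (green) lie mostly at higher counts, with a median of 828.

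DEGs were found on all chromosomes. On the autosomes 1.41% of the genes tested were upregulated and 3.03% downregulated, and on the sex chromosomes X1 and X2 together 1.32% and 1.05%. Without moderate replicate 4 the shares were 14.0% and 17.9% on the autosomes and 20.3% and 11.1% on the sex chromosomes. The median log2 fold-change of the genes on X1 and X2 was 0.10, against -0.02 on the autosomes. The sexes of the spiderlings in a pool are not given in the labels, and the part of sex in these values was not tested.

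Among gene types the small nuclear RNA genes stood out. Most genes of this type encode RNA components of the spliceosome, the complex that removes introns. Of 24 tested, 7 were upregulated in warm and 0 were downregulated, which is 29.2% beside 1.4% of all genes tested. Without moderate replicate 4 there were 15 (62.5%, beside 14.9%), and the log2 fold-change was above 0 in 22 of the 24 with all pools. On chromosome 11 lie 10 of the 24, of which 5 were called. LOC129957802 (chromosome 11 from 63604760 to 63604910) had 436, 171, 136 and 230.3 normalized counts in warm, against 35.5, 33.7, 34 and 79.1 in moderate. LOC129957903 (chromosome 11 from 31534912 to 31535027) had 486, 216, 332 and 211 in warm, against 50.9, 49.2, 17 and 119 in moderate, and it overlaps another annotated gene. A pair of genes with more counts rose by less. LOC129959564 on chromosome X1 had 7558, 6122, 7976 and 8514 in warm, against 4079.8, 5103, 4496 and 3769 in moderate, a log2 fold-change of 0.79 (edgeR adjusted p = 0.0432). LOC129957983 on chromosome 11 had 693, 471, 644 and 648 in warm, against 272, 304, 387 and 415 in moderate, a log2 fold-change of 0.83.

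Genes of this type occur in near-identical copies, and how the counting treated reads that map to several of them is not given in the sources used here, so the values of single copies are uncertain. LOC129958002, a gene of this type, differed widely between pools of a regime, with 265, 458, 359 and 14.1 normalized counts in warm, against 3.84, 2.81, 8.01 and 489 in moderate. Whether LOC129958002 has near-identical copies was not examined. It was not called with all pools (edgeR adjusted p = 0.540) and had the largest log2 fold-change of all DEGs without moderate replicate 4 (5.72). The share of counts in small nuclear and small nucleolar RNA genes differed between the libraries as given above, and its part in these values was not tested. Of 574 long non-coding RNA genes tested, 8 (1.39%) were upregulated and 9 (1.57%) downregulated, beside 1.4% and 2.76% of all genes tested. There were 100 (17.4%) and 37 (6.45%) without moderate replicate 4, beside 14.9% and 17% of all genes tested.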

How the data were processed

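RNA-Seq libraries were made by the authors from 12 pools of 15 spiderlings (4 per winter regime) after depletion of ribosomal RNA. Per the study's methods, the authors mapped reads with STAR (v.2.7.11a) to the assembly qqArgBrue1.1 and deposited raw counts per gene from featureCounts (Subread v.2.0.6). Strand and multi-mapping options are not given in the sources used here.

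The counts were tested with edgeR (v.4.0.16, R v.4.3.3), with TMM normalization, 1 quasi-likelihood model of all 12 pools and the contrast warm minus moderate, for genes with at least 10 counts in at least 4 of the 8 pools. The standard error (SE) was taken as the log2 fold-change divided by the square root of F. DESeq2 (v.1.42.0) and limma voom (v.3.58.1) were alternatives, as were other scalings, filters and thresholds, a replicate block and pools left out. The scripts were run on simulated counts with known changes. Of 37459 genes listed, 2 held no values.

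Named genes were those the study names, the 10 largest rises and 10 largest falls among DEGs without overlap and a mean of at least 10 normalized counts, and the 3 smallest p-values in each direction. Genes outside this rule are stated as such. A gene named in the study is counted in its list but not reported here. Members and lists were chosen with earlier results of these data known. Positions and gene types came from RefSeq (qqArgBrue1.1). Product-name lists, promoters and protein sequences were not used here, since no annotation for them was at hand.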

Additional observations from a re-analysis of the deposited data

Results flagged for a closer look

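In 8 of 96 sets of 4 pools (warm or moderate, over 48 named genes) a single pool lay far from the other 3. The limit used is passed by about 1 in 20 sets of independent, normally distributed values. These sets share their pools, and many of the genes were picked for their values, so the 8 sets cannot be compared with that rate. In 4 of the 8 sets the single pool was moderate replicate 4. It had 535 normalized counts of acetoacetyl-CoA synthetase (LOC129964270), against 78.8, 78.7 and 33 in the other moderate pools, and 287 of the low-density lipoprotein receptor (LOC129957447), against 215, 218 and 222. It had 363 of LOC129966501, against 110.5, 94.2 and 60.1, and 79.1 of the small nuclear RNA gene LOC129957802, against 35.5, 33.7 and 34. All 4 values were shifted towards the warm pools.

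The other 4 sets were spread over the libraries. Moderate replicate 3 had 384 normalized counts of nose resistant to fluoxetine (LOC129962681), against 293, 287 and 277 in the other moderate pools. Moderate replicate 2 had 239 of LOC129958196, whose moderate pools were at 43.2, 239, 49 and 24.8. In LOC129959199 the 4 warm pools were at 11.1, 2.89, 3.96 and 2.82, with replicate 1 apart (11.1), and in LOC129976206 at 17.5, 5.78, 17.8 and 18.8, with replicate 2 apart (5.78).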

How the results depend on the processing

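The number of DEGs depended strongly on the pools and on the tool. No named DEG changed direction under any alternative run, but 4 named genes that were not called did. Upper-quartile scaling gave 114 DEGs (68 of at least 2-fold), a threshold of 0.1 for the adjusted p gave 2514 (479), DESeq2 on all pools 2212 (423) and limma voom with sample weights 5135 (917). Restricted to the 8 warm and moderate pools, edgeR gave 0 DEGs (0), with 3240 genes at an unadjusted p under 0.05, and DESeq2 gave 981 (317). DESeq2's size factors and the 3 other filters on low counts kept the count between 459 and 612 (165 to 231). Leaving out each pool in turn gave 0 to 4403 DEGs (0 to 1115 of at least 2-fold), the upper end without moderate replicate 4 and 0 to 5 without any other pool, with 3276 to 3966 genes at an unadjusted p under 0.05 in the fits that left out one of these. Without moderate replicate 4, edgeR on the 7 remaining pools gave 3384 DEGs (1026) and DESeq2 4953 (1142), and leaving out one further pool gave 3518 to 4124 (878 to 1333). These last 3 kinds of fit and those without a cold pool were added after the data had been seen. Over the named genes and alternatives, 927 calls stayed as reported, 445 were lost, 91 were gained and 14 values, none of them called, changed sign. The log2 fold-change of apolipophorins-like (LOC129959427) was -0.072 by voom. That of tubulin alpha chain (LOC129976437) was 0.021 with upper-quartile scaling and ran from -0.32 to 0.15 with pools left out, and that of quinone oxidoreductases (LOC129981218) was 0.00016 with upper-quartile scaling, 0.035 by voom and -0.099 to 0.070 with pools left out. Acyl-CoA dehydrogenase (LOC129963497) ran from -0.048 to 0.13 with pools left out. The cause of these changes was not tested.

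The labels number the pools 1 to 4 in each regime without saying that a number is shared. Deviations of same-numbered warm and moderate pools correlated by 0.0040 to 0.085 over genes. Moderate replicates 1, 2 and 4 correlated best with the warm pool of the same number, and moderate replicate 3 with warm replicate 1. Since the labels give no pairing, the numbers were not taken as pairs. A replicate block gave 14 DEGs (12 of at least 2-fold).

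The spread between pools of a regime, which was 17.2 to 76.4 times the counting noise on the chi-square scale, exceeded the error set by depth. For genes with few counts, such as LOC129956776, the fold-changes are uncertain.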

Other observations

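Genes that changed by at least 2-fold without moderate replicate 4 were often neighbours on a chromosome. The next tested gene along the chromosome was upregulated at this size as well for 81 of 689 upregulated genes (11.8%), where 4.99% of all genes tested were upregulated, and 31 of 425 downregulated genes (7.29%) were followed by a downregulated one, where 3.07% of all genes were. Near-identical neighbouring copies and shared reads were not examined.

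The longest runs of such neighbours held 5 genes each, and both were picked after their values were seen. On chromosome 11, between 74627645 and 74761303, LOC129957511, LOC129957497, LOC129956687, LOC129957588 and LOC129956689 were upregulated in warm without moderate replicate 4, with log2 fold-changes of 1.65, 2.19, 2.35, 1.97 and 2.37. LOC129957497 and LOC129956687 overlap in position, so their reads may not be fully separated. LOC129957497 had 65.5, 54, 45.5 and 43.2 normalized counts in warm, against 14.4, 5.62, 13 and 44.1 in moderate. LOC129957588 had fewer counts (16.6, 25.1, 16.8 and 10.3 in warm, against 2.88, 1.41, 8.01 and 3.39 in moderate) and was the only one of the 5 called with all pools (edgeR adjusted p = 0.0452). In this gene moderate replicate 4 was like the other moderate pools, and in the other 4 it was near the warm ones.

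On chromosome 4, between 62913230 and 63010874, lie LOC129966317, LOC129967052, LOC129966318, LOC129966319 and LOC129966320, all upregulated without moderate replicate 4, with log2 fold-changes of up to 1.93, the value of the last of them. LOC129966318 had 137, 169.7, 188 and 207 normalized counts in warm, against 63.4, 43.6, 80.1 and 162 in moderate. LOC129966320 had 78.4, 81, 94 and 121 in warm, against 29.8, 15.5, 27 and 67.8 in moderate, and was called with all pools as well (edgeR adjusted p = 0.0464).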
